A study of Oryza sativa with 12 samples.

Results

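The values of 5 sugar transporter genes, *OsSWEET15*, *OsSWEET16*, *OsSWEET13*, *OsSUT2* and *MEX1*, were followed through 12 expression arrays of rice seedlings. They were found by name or synonym in a RefSeq gene table and joined to the array through their gene numbers, and they are 5 of the 15140 genes that could be measured in this way. Each of the 5 had 1 probe set. They were chosen by name, but selected on a known difference between their log2 values after desiccation stress (DS) and in control arrays. That difference is therefore given as a description without a test, whereas the comparisons of genotypes are tested.

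There were 4 groups with 3 independent biological replicates each, according to the methods. Wild-type (WT) seedlings of the cultivar Pusa Basmati 1 and seedlings of the same cultivar over-expressing *OsHOX24* were 3 weeks old, and each genotype spent 3 h either in water (WT_CT, H49_CT) or drying between folds of tissue paper (WT_DS, H49_DS). The paper places the complete coding region of *OsHOX24*, a gene of the HD-ZIP I family of transcription factors, behind a ubiquitin promoter and names the transgenic plants as the single line H49, while the labels give only the over-expressed gene, and call the stress drought. The labels name the tissue as seedlings, so leaves and roots were not measured apart, and fewer cells of a type cannot be told apart from less RNA per cell.

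Sugar made in leaves crosses several membranes before it reaches other tissues. SWEET proteins are uniporters that let sugars move down their gradient through the plasma membrane or the vacuolar membrane, and members of clade III of the family carry mainly sucrose. SUT proteins couple sucrose to protons and act in phloem loading or, like OsSUT2, in release of sucrose from the vacuole. MEX1, best known from Arabidopsis, exports maltose from the chloroplast when starch is broken down, and the cytosolic enzyme DPE2 then processes that maltose. In rice, *OsSWEET13* is also known as a gene that bacterial blight strains switch on.

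The log2 values were made by the authors with RMA, which removes background, gives all arrays 1 distribution and summarises each probe set. Array medians over 54922 probe sets ranged from 4.32 to 4.46, and arrays of a group correlated across genes at 0.949 or more. *OsHOX24* itself had log2 values of 5.61, 4.11 and 2.83 in WT_CT and 4.56, 3.57 and 3.23 in H49_CT, and of 9.38, 10.29 and 10.06 in WT_DS and 10.17, 9.44 and 9.96 in H49_DS. Its probe set was higher in DS arrays but did not set the transgenic arrays apart (H49 minus WT -0.22 over both treatments, exact permutation p = 0.645). By real-time PCR the paper detected a higher level of *OsHOX24* in line H49 than in WT. Whether the probe set reads the transcript of the construct is not known from the tables used here. Among the markers chosen for the tissue, the light-harvesting genes *CAB1R* and *CAB2R* had means of 5.91 and 10.26 in WT_CT. The root silicon transporter gene *Lsi2* had a mean of 7.88 there and the root gene *NAR2.1* 4.45. The seed genes *GLUA1* and *WX1* had means of 6.56 and 2.96, so *GLUA1* stood above the leaf gene *CAB1R*. After DS both leaf genes fell in WT, *CAB2R* by 2.35 (adjusted p = 0.0014 from limma) and *CAB1R* by 0.87 (adjusted p = 0.036). In H49 *CAB2R* fell by 2.28 (adjusted p = 0.0015), and *CAB1R* stood at -0.76 (adjusted p = 0.064). The root gene *Lsi2* fell as well, its change being -1.81 in WT (adjusted p = 0.0025) and -1.34 in H49 (adjusted p = 0.013), whereas the root gene *NAR2.1* stood at 0.09 and 0.29 and passed in neither. The seed genes *GLUA1* (0.04 in WT) and *WX1* (0.39 in WT) did not pass either. Without the arrays of replicate 1 *Lsi2* no longer passed (adjusted p = 0.055 in WT and 0.17 in H49), nor did *CAB1R* in WT (0.30), which also missed the threshold with centred arrays (0.11) and with quantile normalization (0.11). The part of tissue make-up in the results was not tested.

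*OsSWEET15*, a clade III member known in rice for passing sucrose to the filling grain, had the largest response of the 5. In WT_CT its log2 values were 5.12, 3.66 and 3.55, and in WT_DS they were 8.74, 9.11 and 9.36. In H49_CT they were 4.13, 4.50 and 3.42, and in H49_DS 9.22, 10.24 and 9.19. Every DS array thus lay far above every control array, and the spread was widest in WT_CT, where replicate 1 was the highest of the 6 control arrays. The control values were around the median of all probe sets, and DS values were well above it. No detection call was used, so whether the control level stood above background is not known, and the folds are ratios of RMA values. On the log2 scale DS minus control was 4.96 (standard error 0.41, a fold of 31.2) for WT and 5.53 (standard error 0.41, a fold of 46.3) for H49. Only 3 of the 15140 genes had a larger rise in WT and 2 in H49. Without the 4 arrays of replicate 1 the difference was 5.63 in WT and 5.76 in H49.

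*OsSWEET16* belongs to clade IV, whose Arabidopsis members sit in the vacuolar membrane. Its log2 values were 4.59, 4.74 and 4.88 in WT_CT and 7.32, 7.72 and 8.08 in WT_DS. In H49 they were 5.08, 4.64 and 4.62 in control arrays and 7.70, 6.82 and 7.85 after DS. The control arrays lay close together and the DS arrays spread more, with replicate 2 of H49_DS the lowest of them. The difference was 2.97 in WT (standard error 0.27, a fold of 7.82) and 2.68 in H49 (standard error 0.27, a fold of 6.40). Of all genes, 46 had a larger rise in WT and 84 in H49.

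*OsSWEET13*, another clade III member, has maize counterparts that load sucrose into the phloem. Its log2 values were 6.81, 5.76 and 6.28 in WT_CT and 7.27, 7.72 and 7.33 in WT_DS. In H49 they were 6.29, 5.92 and 5.98 without stress and 8.36, 8.02 and 7.21 after DS. The groups did not overlap, but the margin was the narrowest among the 3 SWEET genes, since the lowest DS array (7.21) stood only a little above the highest control array (6.81), again replicate 1 of WT_CT. The difference was 1.16 in WT (standard error 0.30, a fold of 2.24) and 1.80 in H49 (standard error 0.30, a fold of 3.48). Without replicate 2 of WT_CT the WT value was 0.90, below 2-fold.

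*OsSUT2*, the sucrose transporter gene of the vacuolar membrane, had the most even control values. They were 6.29, 6.27 and 6.28 in WT_CT and 6.33, 6.28 and 6.11 in H49_CT. After DS the values were 7.28, 7.58 and 7.90 in WT and 7.23, 7.76 and 7.50 in H49. The SD was 0.01 in WT_CT and 0.31 in WT_DS, so the arrays differed mostly after stress. The difference was 1.31 in WT (standard error 0.20, a fold of 2.47) and 1.25 in H49 (standard error 0.20, a fold of 2.39), which are nearly the same size.

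*MEX1* was the only one of the 5 that was lower after DS. Its log2 values were 5.22, 5.34 and 5.44 in WT_CT and 4.49, 4.18 and 4.29 in WT_DS. In H49 they were 5.15, 5.73 and 5.71 without stress and 3.72, 4.43 and 3.86 after DS. All 6 DS arrays lay below all 6 control arrays. The difference was -1.01 in WT (standard error 0.22), a fold of 2.02, and -1.53 in H49 (standard error 0.22), a fold of 2.89. In WT the size was at the edge of 2-fold, and it was -0.81 after the arrays were centred on their medians and -0.84 after quantile normalization. The leaf genes *CAB2R* (-2.35 in WT and -2.28 in H49) and *CAB1R* (-0.87 and -0.76) were lower in the same DS groups, and their part in the difference of *MEX1* was not tested. Of all genes, 1320 had a larger fall in WT and 479 in H49.

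**Figure D1:**
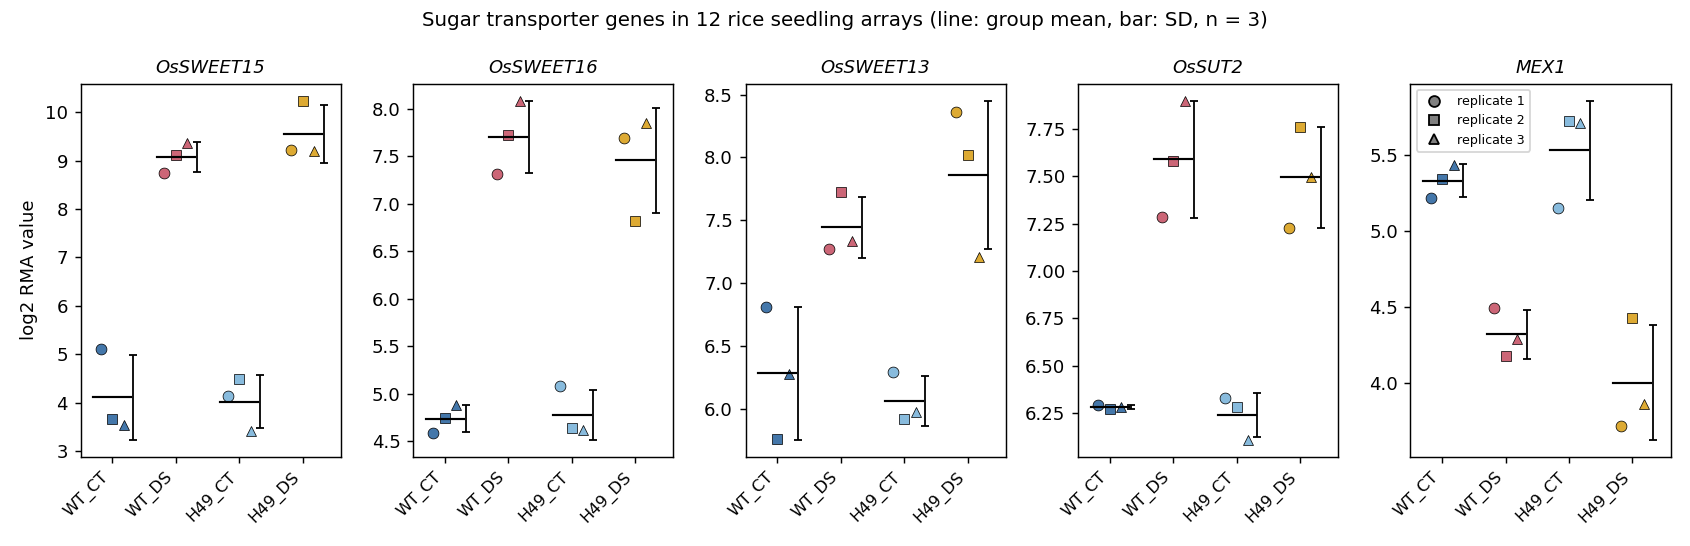
Log2 RMA value (y axis, a separate scale per gene) of the 5 transporter genes in the 4 groups (x axis), with 1 point per array, the marker shape giving the replicate number, a line at the group mean and a bar of 1 SD (n = 3). DS arrays lie above control arrays for the 3 SWEET genes and *OsSUT2* and below them for *MEX1*, while WT and H49 overlap within each treatment.

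In WT and in H49 separately, the 3 arrays of each treatment did not overlap for any of the 5 genes, as also held for 15% of all genes on the higher and 24.9% on the lower side in WT, and for 17.7% and 27.1% in H49. All 5 genes met an adjusted p of at most 0.05 together with a 2-fold difference in both genotypes, where 13.4% of all genes did so in WT and 14.6% in H49, but the choice of the genes fixed both counts, and nothing is read from them. For each gene the order of the 4 group means split by treatment first. The SWEET genes and *OsSUT2* had their DS means on top, and *MEX1* had its control means on top. Within a treatment, neighbouring group means of WT and H49 differed by 0.04 to 0.48 on the log2 scale, in every case less than the larger SD of the pair, and their arrays overlapped for all 5 genes. The largest of these gaps was for *OsSWEET15* after DS (0.48, larger SD 0.60) and the smallest for *OsSWEET16* without stress (0.04, larger SD 0.26).

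Whether over-expression of *OsHOX24* altered these genes was asked with limma over all 15140 genes. None of the 5 genes passed this test between H49 and WT, whether compared in control arrays, in DS arrays or across all 12 arrays. The adjusted p was 0.97 or more for each gene in each comparison, and 0 of the 5 had an unadjusted p under 0.05. The share of all genes called in each of these comparisons was 0%. At the same fold and corrected p, the paper reports many genes that differ in the transgenic line from WT in control, DS or both. Its figure of them shows H49 against WT without stress, beside the DS response of each genotype. The reason for the unlike results was not tested. Without the 4 arrays of replicate 1, 20 genes were called higher in H49 in control arrays and 7 in DS arrays, and 41 were called higher and 11 lower across both, but none of the 5 was among them. At an unadjusted p under 0.05 limma gave 290 genes in control arrays, 733 in DS arrays and 604 across both.

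The intervals state how large a difference could have been missed. Over both treatments H49 minus WT was 0.19 on the log2 scale for *OsSWEET15*, and its 95% interval was -0.44 to 0.82 (p = 0.61 in an exact, two-sided permutation test that exchanged genotypes inside each treatment). For *OsSWEET16* it was -0.11, from -0.52 to 0.31 (exact permutation p = 0.64). For *OsSWEET13* it was 0.10, from -0.37 to 0.56 (exact permutation p = 0.705). The vacuolar *OsSUT2* gave the tightest interval, from -0.37 to 0.23 around -0.07 (exact permutation p = 0.545). For *MEX1* it was -0.06, from -0.40 to 0.28 (exact permutation p = 0.715). The smallest p that the 400 divisions allow is 0.005. Averaged over both treatments, the data thus leave room for *OsSWEET15* to be up to 1.77-fold higher or 1.36-fold lower in H49. For *OsSUT2* they leave room for up to 1.17-fold higher or 1.29-fold lower.

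After DS alone the intervals were wider. *OsSWEET15* was 0.48 higher in H49_DS than in WT_DS, with an interval from -0.42 to 1.37. *OsSWEET13* was 0.42 higher, from -0.24 to 1.08. *MEX1* stood at -0.32, from -0.79 to 0.16. With 3 arrays against 3, the exact permutation test within DS gave p = 0.4, 0.4 and 0.3 for these genes, where 0.1 is the smallest it can give. These differences were smaller than the SD of H49_DS (0.60, 0.59 and 0.38) but larger than that of WT_DS (0.31, 0.25 and 0.16).

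The response to DS was also compared between the genotypes, as the interaction of genotype and treatment, for genes chosen with both responses known. The response in H49 minus that in WT was 0.57 for *OsSWEET15* (95% interval from -0.69 to 1.83) and 0.64 for *OsSWEET13* (from -0.29 to 1.57). It was -0.52 for *MEX1* (from -1.19 to 0.16), a larger fall in H49 in the point estimate. *OsSWEET16* gave -0.29 (from -1.12 to 0.54) and *OsSUT2* -0.05 (from -0.65 to 0.54). The adjusted p from limma rounded to 1 for all 5 genes, and 0 of the 5 had an unadjusted p under 0.05, against 360 of all genes. The value of *OsSWEET15* rested on replicate 1 of WT_CT, without which it was 0.07. That of *OsSWEET13* was 0.16 without the arrays of replicate 1.

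**Figure D2:**
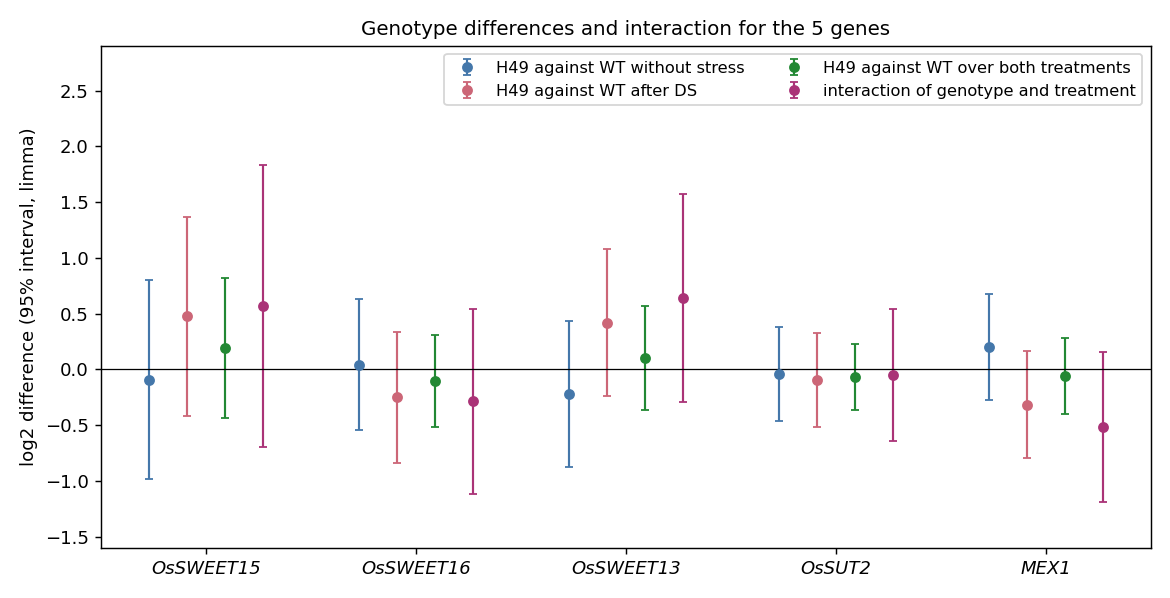
Log2 difference (y axis) between H49 and WT for the 5 genes (x axis) in control arrays, in DS arrays, over both treatments, and as the interaction of genotype and treatment, with points for limma estimates and bars for 95% intervals. Every interval includes 0, the narrowest being that of *OsSUT2* over both treatments and the widest the interaction for *OsSWEET15*.

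Some arrays held the highest or lowest value of more than 1 gene. With 5 genes and 6 arrays per treatment some such sharing must occur. The arrays named here were picked after the values were seen, and nothing was tested. Replicate 1 of WT_CT was the highest of the 6 control arrays for *OsSWEET15* (5.12) and *OsSWEET13* (6.81), and also for *OsHOX24* (5.61). Replicate 1 of H49_CT had the lowest *MEX1* value of the control arrays (5.15) and the highest *OsSWEET16* value (5.08). Replicate 2 of H49_DS combined the highest *OsSWEET15* value (10.24) with the lowest *OsSWEET16* value of the DS arrays (6.82). In that array the 2 SWEET genes thus stood at opposite ends of their DS values.

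The wider family was read from a list of names fixed for sugar transport and release, written with the study's own results known. The gene table holds 14 SWEET genes, of which 10 had a probe set, and beside the 3 described above none of the other 7 met the adjusted p and 2-fold together, in either genotype. The background was 4.93% of genes rising and 8.47% falling in WT, and 5.26% and 9.3% in H49. The median change of the 7 genes was 0.48 in WT and 0.37 in H49, beside -0.06 over all genes tested in each genotype.

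Among these 7 genes, *OsSWEET4*, known in rice as a hexose transporter of the developing grain, came nearest. Its values were 8.47, 8.41 and 8.53 in WT_CT and 9.23, 9.24 and 9.78 in WT_DS. In H49 they were 8.49, 8.44 and 8.38 without stress and 9.67, 9.06 and 9.16 after DS. Control and DS arrays did not overlap in either genotype, as held on the higher side for 15% of all genes in WT and 17.7% in H49. The limma rise was 0.95 in WT (adjusted p = 0.0042) and 0.86 in H49 (adjusted p = 0.0068), both under 2-fold. With centred arrays the values were 1.16 and 1.08, past 2-fold. *OsSWEET12*, a clade III gene, rose by 0.70 in H49 (adjusted p = 0.0095) and stood at 0.48 in WT (adjusted p = 0.055). All 12 of its values, from 2.47 to 3.61, were below the medians of the arrays. Without the arrays of replicate 1 neither *OsSWEET4* (adjusted p = 0.069) nor *OsSWEET12* (0.073) passed in H49.

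The clade III gene *OsSWEET11*, which acts in grain filling together with *OsSWEET15*, had a change of -0.23 in WT and -0.21 in H49 (adjusted p = 0.57 and 0.61 from limma). Its values ran from 5.30 to 6.14 in WT_CT and from 5.33 to 5.82 in WT_DS, so control and DS arrays overlapped. The test of this gene thus gave no rise beside the 31.2-fold difference of *OsSWEET15* in the same WT arrays, although the difference between the genes was not tested. *OsSWEET3a* stood at -1.18 in WT and -1.34 in H49 (adjusted p = 0.11 and 0.07), with control values from 3.11 to 5.72 in WT, and without the arrays of replicate 1 it fell in H49 by 1.63 (adjusted p = 0.040). *OsSWEET2a* (0.52 and 0.37), *OsSWEET6a* (0.65 and 0.57) and *OsSWEET2b* (-0.30 and -0.89) did not pass in either genotype. The gene listed as *OsSWEET6a* also carries the name of *OsSWEET6b* in the gene table.

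Of the sucrose transporter genes beside *OsSUT2*, *OsSUT1*, whose product carries sucrose through the plasma membrane, was close to it in size. Its values were 6.96, 6.77 and 6.59 in WT_CT, 7.60, 7.94 and 7.76 in WT_DS, 7.02, 6.93 and 6.51 in H49_CT, and 8.00, 8.31 and 7.67 in H49_DS. No DS array overlapped a control array. Within a genotype, 15% of all genes in WT and 17.7% in H49 were likewise higher in all DS arrays. *OsSUT1* rose by 1.18 in H49 (adjusted p = 0.0013 from limma, a fold of 2.26) and by 0.99 in WT (adjusted p = 0.0041), just under the 2-fold limit. *OsSUT4* (0.21 in WT and 0.08 in H49) and *OsSUT5* (0.29 and 0.27) did not pass.

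**Figure D3:**
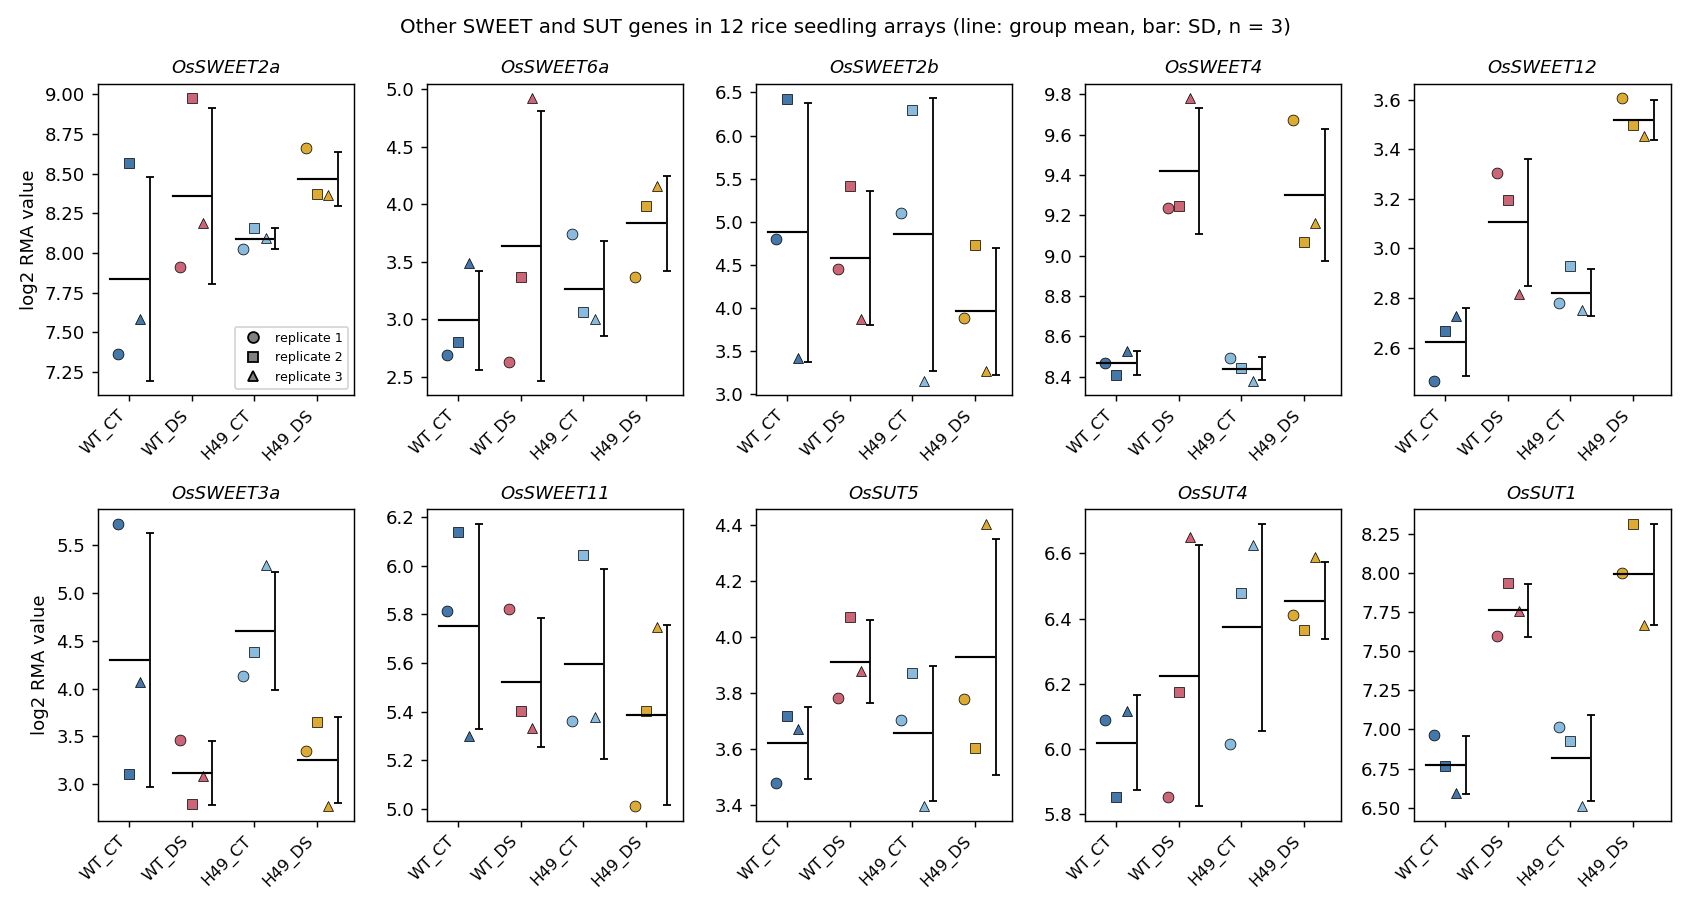
Log2 RMA value (y axis, a separate scale per gene) of the other 7 SWEET and 3 SUT genes with a probe set in the 4 groups (x axis), with 1 point per array, the marker shape giving the replicate number, a line at the group mean and a bar of 1 SD (n = 3). *OsSWEET4* and *OsSUT1* are higher in all DS arrays, and *OsSWEET2b* is highest in replicate 2 and lowest in replicate 3 of every group.

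On the maltose side, *DPE2*, whose product processes maltose in the cytosol, fell in the arrays in which *MEX1* was lower. Its values were 8.51, 9.04 and 9.24 in WT_CT and 7.52, 8.20 and 7.64 in WT_DS. In H49 they were 8.86, 8.92 and 9.08 without stress and 7.88, 8.12 and 7.54 after DS. The limma change was -1.14 in WT (adjusted p = 0.0037) and -1.11 in H49 (adjusted p = 0.0041). After arrays were centred on their medians these changes were -0.93 and -0.89, below 2-fold. The related plastid enzyme gene *DPE1* stood at 0.25 in both genotypes (adjusted p = 0.45 in both), and *GWD3*, a gene of starch phosphorylation, fell by 0.68 in WT (adjusted p = 0.017, under 2-fold) and stood at -0.45 in H49 (adjusted p = 0.093). In WT *GWD3* missed the threshold with centred arrays (0.065) and without replicate 1 (0.077). Of the 3 measured starch breakdown genes beside *MEX1*, 1 met the adjusted p and 2-fold in each genotype, a fall. At the same thresholds 8.47% of all genes fell in WT and 9.3% in H49.

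Genes that place sugars and phosphorylated carbon elsewhere showed both directions. *OsPPT2*, a plastid translocator gene for phosphoenolpyruvate, was lower by limma after DS, with changes of -1.52 in WT (adjusted p = 0.021) and -1.85 in H49 (adjusted p = 0.0069). Without the arrays of replicate 1 its changes were -1.23 and -1.81, with a larger standard error (0.61 against 0.44) and an adjusted p of 0.21 and 0.081. *OsPPT3* stood at 0.43 in WT and at 0.50 in H49 (adjusted p = 0.045), and the latter missed the threshold with the replicate number as a block (0.054) and without replicate 1 (0.23). The cell wall invertase gene *CIN4* fell by 1.01 in H49 (adjusted p = 0.011) and stood at -0.68 in WT (adjusted p = 0.069). In H49 it was below 2-fold with centred arrays (-0.79), with quantile normalization (-0.78) and without the arrays of replicate 1 (-0.78, adjusted p = 0.066). In contrast, *CIN1*, another cell wall invertase gene, was higher in both genotypes, with a rise of 0.90 in WT (adjusted p = 0.028) and of 0.93 in H49 (adjusted p = 0.023), under 2-fold. In H49 its adjusted p was 0.073 without replicate 1, and with centred arrays or quantile normalization it passed 2-fold in both genotypes. *CIN3*, *CIN6* and *CIN7*, the hexose transporter gene *MST5* and the sucrose phosphate synthase genes *OsSPS2F* and *OsSPS3F* did not pass in either genotype.

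Over all lists together, 23 genes beside the 5 were measured. In WT 0 of the 23 rose and 2 fell at the adjusted p with 2-fold, where 4.93% of all genes rose and 8.47% fell. In H49 1 rose and 3 fell, where 5.26% and 9.3% of all genes did. Without the fold minimum 3 rose and 3 fell in WT, where 9.25% of all genes rose and 17.2% fell, and 5 rose and 3 fell in H49, where 9.48% and 17.7% did. The median change of the 23 genes was 0.07 in WT and 0.08 in H49, beside -0.06 over all genes tested in each genotype. The count of rises in WT depended on the scaling and on single arrays, being 3 with centred arrays (*OsSUT1*, *OsSWEET4* and *CIN1*) and 3 without replicate 1 of WT_DS.

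**Figure D4:**
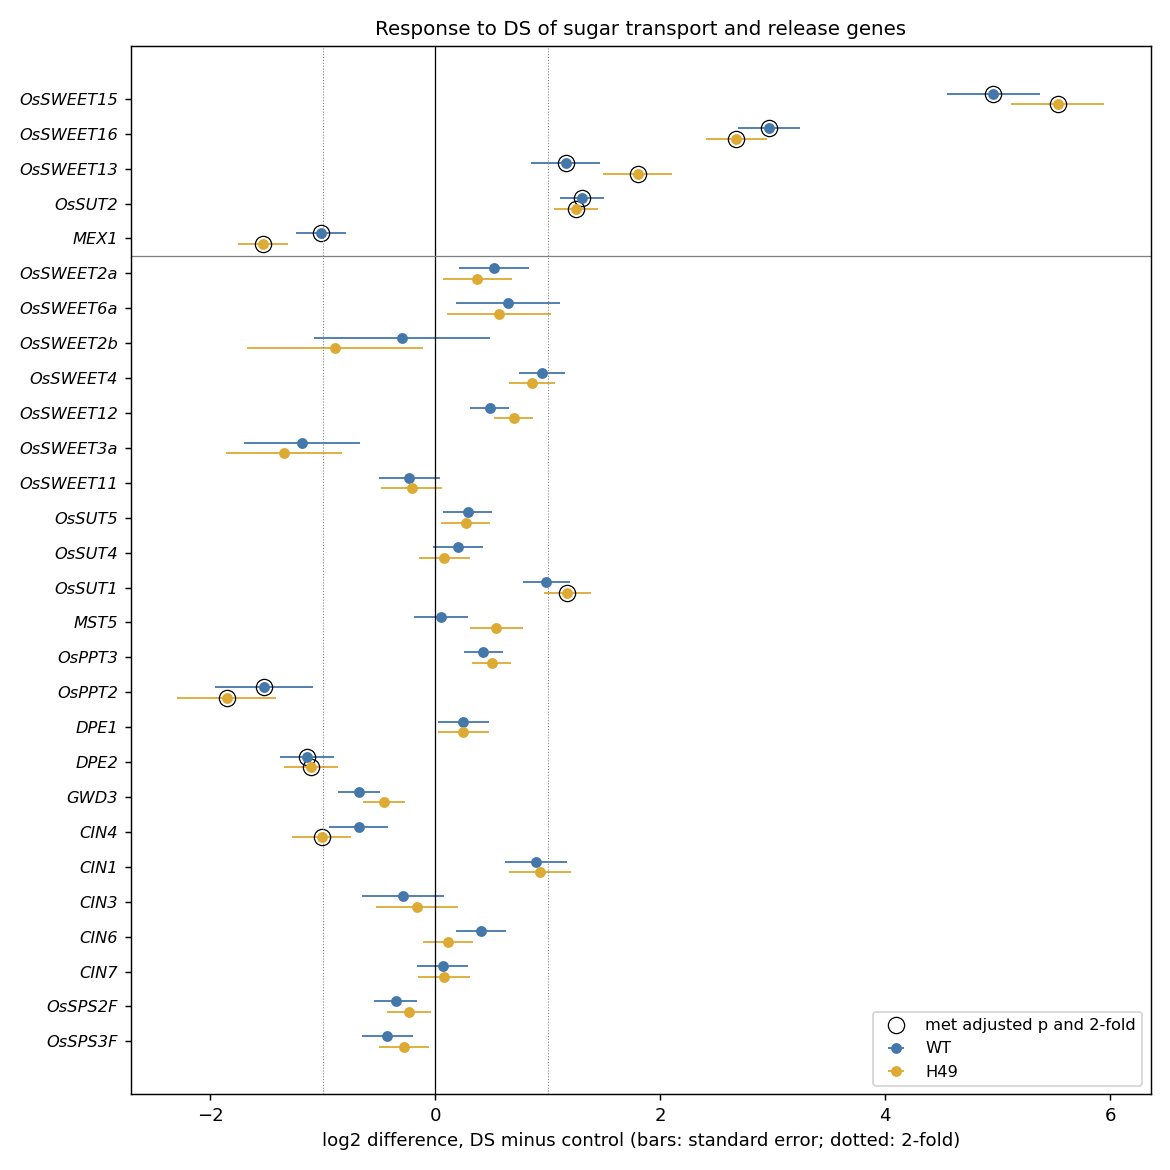
Log2 difference between DS and control arrays (x axis) for the 5 transporter genes (above the line) and the 23 other sugar transport and release genes (below it), with points for limma estimates in WT and H49 and bars for standard errors. Rings mark an adjusted p of at most 0.05 with at least 2-fold, and dotted lines mark 2-fold. *OsSWEET15* and *OsSWEET16* stand apart from the rest, and *MEX1*, *DPE2* and *OsPPT2* lie on the low side in both genotypes. The 5 genes were chosen on a known difference after DS, so nothing is read from their distance to the other genes.

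The genes whose log2 values were most like those of the 5 over the 12 arrays were listed among 1721 genes with a recognised name, by Pearson correlation and as a description. All arrays share the split between control and DS, so the correlation was also taken within the 6 control and the 6 DS arrays, where it was lower for every one of the listed genes. For *OsSWEET15* the nearest were *LEA19* (also named *OsLEA3-1*, a late embryogenesis abundant gene, r = 0.993, and 0.777 and 0.828 within control and DS arrays), *OsCyp3* (r = 0.991, and 0.928 and 0.666) and the protein phosphatase 2C gene *OsPP2C59* (r = 0.990, and 0.845 and 0.364). For *OsSWEET16* they were *DRR1* (also named *LTI6A*, r = 0.986, and 0.800 and 0.749 within treatments), *MHZ4* (r = 0.986, and 0.379 and 0.755) and the phytoene synthase gene *OsPSY3* (r = 0.984, and -0.564 and 0.850). The negative r of *OsPSY3* rests on only 6 control arrays and was not tested.

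For *OsSWEET13* the likeness was lower, with *DRB7* (r = 0.955, and 0.926 and 0.734 within control and DS arrays), the xanthine dehydrogenase gene *XDH* (r = 0.953, and 0.845 and 0.757) and *HGO* (r = 0.953, and 0.922 and 0.660), a gene of tyrosine breakdown. For *OsSUT2* the nearest were *MODD* (r = 0.979, and 0.597 and 0.756 within treatments), which is known to restrain abscisic acid signalling, the chlorophyll breakdown gene *OsRCCR1* (r = 0.975, and -0.0061 and 0.732) and *OsSWEET15* itself (r = 0.969, and 0.516 and 0.602). For *MEX1* they were genes that were lower after DS as well, the xylan glycosyltransferase gene *OsGT43A* (r = 0.963, and 0.866 and 0.583 within treatments), the cellulose synthase gene *OsCesA1* (r = 0.962, and 0.395 and 0.900) and *CBF3* (also named *DREB1A*, r = 0.957, and 0.912 and 0.717).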

How the data were processed

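Total RNA of whole rice seedlings was labelled from 500 ng and hybridised to Affymetrix arrays. The deposited values, 1 log2 value per probe set and array, were made by the authors with RMA and were used without further scaling. Of 54922 probe sets, 15829 carried 1 gene in the table of gene names, 440 several and 38653 none. Names came from a RefSeq gene table of a Japonica assembly, in which synonyms were counted as names, and all 15140 genes were found there. For 627 genes with several probe sets, the one with the highest mean was used. No coordinates or sequences were used, since the build of the array is not given in the sources used here, and the planned search for promoter motifs was not run. A pair of symbols that sucrose phosphate synthase shares with solanesyl diphosphate synthase was left out.

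The 12 arrays entered 1 linear model (limma 3.58.1, R 4.3.3) with a mean for each group, and p-values were adjusted over all genes by Benjamini-Hochberg. The code was run on simulated data for the response to DS in WT only. Its noise was independent between arrays, so it held no deviations shared by replicate number. Calls needed both an adjusted p up to 0.05 and 2-fold, the study's thresholds. Only 3 arrays per group limit the precision. The members and lists were chosen with earlier results of these data known. Genes were named by rule: the 5 members, *OsHOX24*, all SWEET and SUT genes measured, up to 3 called genes of each other list, and the 3 named genes most like each member. Other genes of the lists, which did not meet the call, and the tissue markers are named to account for all. Alternatives covered the scaling, dim genes (mean log2 value of 4.39 or less), the fold minimum, the t-test of the methods, all probe sets, the arrays fitted, a replicate block, and leaving out each array. Leaving out all replicate 1 arrays was added after the data were seen. Python 3.11.15 was used for tables and figures.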

Additional observations from a re-analysis of the deposited data

How the results depend on the processing

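Each of the 5 genes kept its direction after DS in both genotypes under every alternative run. The genes were chosen on this difference, and control and DS arrays did not overlap within a genotype. Leaving out arrays therefore could not have changed the direction. *MEX1* in WT no longer met 2-fold with centred arrays (-0.81) or quantile normalization (-0.84). With single arrays, or all arrays of replicate 1, left out, the differences ran from 4.68 to 5.63 in WT and 5.19 to 5.77 in H49 for *OsSWEET15*, 2.78 to 3.16 and 2.48 to 3.00 for *OsSWEET16*, 0.90 to 1.51 and 1.55 to 2.13 for *OsSWEET13*, 1.15 to 1.46 and 1.12 to 1.43 for *OsSUT2*, and -1.16 to -0.94 and -1.74 to -1.39 for *MEX1*. The only other setting that moved a value by more than the spread of the arrays was centring on the median, which took *OsSUT2* in H49 to 1.47 and moved the median over all genes, -0.06 in both genotypes, to 0.14 (WT) and 0.16 (H49).

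No member was called between the genotypes or for the interaction in any setting. With arrays left out, these small differences changed sign in some cases and kept it in others. Over both treatments they ran from 0.02 to 0.44 for *OsSWEET15*, -0.37 to 0.053 for *OsSWEET16*, -0.032 to 0.26 for *OsSWEET13*, -0.14 to 0.0095 for *OsSUT2* and -0.17 to 0.12 for *MEX1*. Without stress they ran from -0.37 to 0.41 for *OsSWEET15*, -0.18 to 0.12 for *OsSWEET16*, -0.48 to 0.044 for *OsSWEET13* and -0.086 to 0.022 for *OsSUT2*. After DS they ran from -0.56 to 0.067 for *OsSWEET16* and -0.25 to 0.062 for *OsSUT2*, and the interaction ran from -0.49 to 0.029 and from -0.20 to 0.10 for the same pair of genes. The sign did not change for *OsSWEET15* after DS (0.13 to 0.65) or in the interaction (0.067 to 0.85). Nor did it for *OsSWEET13* after DS (0.085 to 0.75) or in the interaction (0.16 to 0.97). *MEX1* kept its sign without stress (0.10 to 0.39), after DS (-0.53 to -0.088) and in the interaction (-0.73 to -0.37).

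The counts over all genes moved more. In WT 747 rose and 1283 fell, against 1401 and 2610 with no fold minimum, 209 and 216 by the methods' t-test, and 1490 and 3170 over all probe sets, and with centred arrays 774 fell. In H49 797 rose and 1408 fell, against 1436 and 2673 with no fold minimum, and 1527 and 3408 over all probe sets, while 752 fell by the t-test and 885 with centred arrays. Between the genotypes 0 genes were called, against 20 in control arrays, 7 in DS arrays, and 41 higher and 11 lower across both without the arrays of replicate 1. Leaving out arrays gave 670 to 873 rises and 1020 to 1485 falls in WT, and 755 to 818 and 1055 to 1545 in H49. Of the 23 other sugar genes, the rises in WT went from 0 to 3 with no fold minimum or with centred arrays and to 2 with quantile normalization, and in H49 from 1 to 5, 3 and 2, and to 0 by the t-test. The falls in WT went from 2 to 1 with centred arrays or over all probe sets and to 0 by the t-test, and in H49 from 3 to 1 with centred arrays or by the t-test. Leaving out arrays gave 0 to 3 rises and 0 to 3 falls in WT, and 1 to 2 and 2 to 4 in H49. The cause was not tested.

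The replicate numbers were not used as a block, since nothing in the labels says what they share and a correlation of deviations above 0.1 was asked of every pair of arrays with the same number. It held for 13 of 18, among them all 12 pairs of numbers 2 and 3, and the lowest, of number 1, was -0.20. With a replicate block, *OsSWEET15* kept its differences of 4.96 and 5.53 after DS, all genes called numbered 761 and 1336 in WT and 810 and 1445 in H49, and no call at 2-fold of a member or of the 23 genes changed. Of the 12 arrays, 10 correlated best with an array of their own number.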

Other observations

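*OsSWEET2b*, a clade I gene of the family, was ordered by replicate number in all 4 groups. Its log2 values in replicates 1, 2 and 3 were 4.80, 6.42 and 3.42 in WT_CT, 5.11, 6.30 and 3.16 in H49_CT, 4.45, 5.41 and 3.87 in WT_DS, and 3.88, 4.74 and 3.27 in H49_DS. Replicate 2 was thus the highest and replicate 3 the lowest in each group, a pattern chosen after the values were seen. With the replicate number as a block its standard error fell from 0.78 to 0.32, and its change after DS in H49 was -0.89 with an adjusted p of 0.053 from limma, against 0.44 without the block.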
